A study of Homo sapiens with 9 samples.

Results

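The comparison described here is between SCP51 and SCP58, lines that were each grown from a single cell of SW480/EGFP, an established human colorectal carcinoma cell line carrying enhanced green fluorescent protein. SCP51 was classed as highly metastatic and SCP58 as poorly metastatic from an orthotopic model, in which tumour cells are placed in the organ of origin of a mouse. Its members were chosen by title: the 3 SCP51 arrays and the 3 SCP58 arrays, 6 of the 9 arrays of the series, over all annotated genes that passed a filter on low signal, 13598 genes in all. The other 3 arrays hold the uncloned SW480/EGFP population, called the parent below. All 9 RNA samples came from cells in culture, in RPMI 1640 medium with fetal bovine serum, and not from tumours. Each metastatic class is a single clone, so metastatic class and clone cannot be told apart. The labels call the arrays of a line biological replicates without saying how the cultures were kept separate, so a p-value here reflects only how these arrays scatter.

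Metastasis of a carcinoma is a chain of steps in which cells leave the primary tumour, cross the surrounding matrix and grow elsewhere. Genes often studied in it act in cell junctions that hold an epithelium together, in integrins and matrix proteins that give cells a hold outside it, and in pathways such as Wnt and TGF-beta signalling that set cell identity.

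The signal on an Affymetrix array is the brightness of a probe set, a group of short probes for a transcript. A difference below is SCP51 minus SCP58 on the log2 scale, with its standard error from limma (n = 3 arrays per line), and a gene was called when its adjusted p was under 0.05. SCP51 replicate 1 stood apart from the other 8 arrays. Its trimmed mean signal was 125, against 142 to 150 elsewhere. It also had the dimmest hybridisation control, with a cre signal of 5737 against 8246 to 9892. Its ratio of 3' to 5' GAPDH signal was the lowest, 0.761 against 0.894 to 0.957. The same ratio for ACTB, 1.08, and its median signal, 43.2, lay within the ranges of the other arrays. The main results are given with and without it. Of 65 called genes examined one by one below, 1 lost its call without that array, HOXB4. The 15 taken by size in each direction had to be called without it too, so they could not lose theirs.

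The cells carried bright epithelial markers, but those more particular to the intestine were dim. Of 12 markers of colorectal epithelium, 9 lay above the array median on all 9 arrays and 2, KRT20 and LGALS4, on none, and the summed signal of the list was 19061 to 24624 in SCP51 and 19390 to 21327 in SCP58. EPCAM, an epithelial adhesion molecule, had signals of 2818, 2646 and 2554 in SCP51 and of 2836, 3053 and 3096 in SCP58. EPCAM and the keratins KRT8, KRT18 and KRT19 made up most of the sum. CDX1, CDX2, VIL1, GPA33 and CEACAM5 reached at most 130 on any array, while the fibroblast marker COL1A1 reached 172. Markers of other cells were faint: the summed signals of 8 fibroblast markers ran from 366 to 442 over both lines, those of 8 endothelial markers from 319 to 362 and those of the 5 measured blood cell markers from 164 to 222. None of the markers tested on these 4 lists was called with all arrays, and without SCP51 replicate 1 there were 2 epithelial markers called higher. Above the median on all 9 arrays were 1 of the 8 fibroblast markers (COL1A1), 3 of the 8 endothelial markers (VWF, ROBO4 and ESAM) and 1 of the 5 blood cell markers (CD3E). Under it on all 9 were 4 fibroblast markers (COL1A2, COL3A1, LUM and FAP), 2 endothelial (CDH5 and ERG) and 3 blood cell markers (PTPRC, MS4A1 and CD14). The part of these other markers in the results was not tested.

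In SCP51, 201 genes were higher and 354 lower than in SCP58, together 4.08% of the genes tested (1.48% higher and 2.6% lower). These counts come from the fit of all 9 arrays. With only the 6 arrays compared the calls were fewer, and 38 of the 65 called genes examined one by one lost theirs. The largest differences included ZBED2, CYP24A1, SEMA3A and PCDH7 on the higher side and SLC16A14, MARCKS, VSNL1 and UPP1 on the lower side. Of the called genes, 7 were at least 4-fold higher and 8 at least 4-fold lower, and the median size of a called difference was 0.85. The excess of lower calls depends on the scaling: quantile normalization gave 319 higher against 302 lower, and subtracting the 75th percentile of each array gave 309 against 297. The arrays of the lines did not overlap for 25.1% of all genes, 7.91% with SCP51 above and 17.2% with SCP51 below. All 555 called genes were among these.

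Without SCP51 replicate 1 the number of calls was 1197, or 8.8% of genes, 557 higher (4.1%) and 640 lower (4.71%). Of the 555 genes called with all arrays, 543 were called again. Their direction could not change, because the lines did not overlap for any of the 555. The 543 made up 97.8% of the first set and 45.4% of the second. Leaving out another array mostly made calls fewer. The total fell to 191 on omitting SCP51 replicate 2, and to 324 or 249 on omitting parent replicate 1 or 3. Omitting SCP58 replicate 1, 2 or 3 left 340, 141 or 166 calls. When SCP51 replicate 3 was omitted, 115 genes were called higher and 474 lower.

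**Figure D1:**
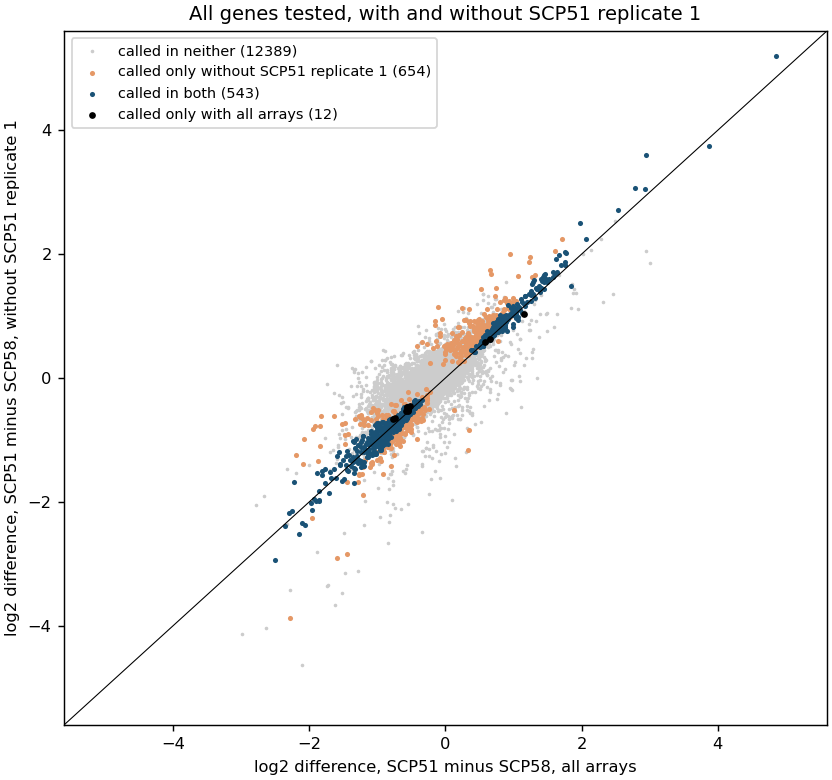
Each point is a gene, with its log2 difference between SCP51 and SCP58 from all arrays on the x axis and without SCP51 replicate 1 on the y axis, and the line marks equal values. The 543 genes called in both lie close to the line at both ends, and the 654 called only without that array spread around it.

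A rule on size, call and brightness picked 81 genes to be examined one by one, and 65 of them were called. Of those 65, 23 kept their call under every alternative in which they had a value: ZBED2, CCDC144NL-AS1, CYP24A1, SEMA3A, PCDH7, THBS1, SOX4, PRKX, LOXL2, EFNA5, COL6A3, DKK1 and DUSP6 on the higher side and MARCKS, VSNL1, EPN3, SYBU, UBALD2, S100A14, CA2, VDR, CYC1 and UQCRB on the lower side. COL6A3 did not pass the stricter filter, so it has no value there. COL6A3 and CCDC144NL-AS1 passed the main filter on low signal through SCP51 alone. The promoters of 6 genes are shown as RefSeq gives them in assembly GRCh38.p14. ZBED2 is shown because it had the largest difference, and the others because they are among those 23, with 3 on the higher and 2 on the lower side. Each sequence covers the 250 bases before the annotated start, 5' to 3' on the strand of the gene, with the matches to the motifs searched in capitals. ZBED2 lies at chr3:111595347-111595596 on the minus strand, THBS1 at chr15:39580829-39581078 on the plus strand and SOX4 at chr6:21593501-21593750 on the plus strand. DKK1 lies at chr10:52314031-52314280 on the plus strand, MARCKS at chr6:113857095-113857344 on the plus strand and S100A14 at chr1:153616326-153616575 on the minus strand.
ZBED2: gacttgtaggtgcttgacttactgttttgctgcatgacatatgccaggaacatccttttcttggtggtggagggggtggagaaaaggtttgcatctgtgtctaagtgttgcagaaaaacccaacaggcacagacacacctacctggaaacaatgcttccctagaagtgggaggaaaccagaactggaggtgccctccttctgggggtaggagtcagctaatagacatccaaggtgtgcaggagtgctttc
THBS1: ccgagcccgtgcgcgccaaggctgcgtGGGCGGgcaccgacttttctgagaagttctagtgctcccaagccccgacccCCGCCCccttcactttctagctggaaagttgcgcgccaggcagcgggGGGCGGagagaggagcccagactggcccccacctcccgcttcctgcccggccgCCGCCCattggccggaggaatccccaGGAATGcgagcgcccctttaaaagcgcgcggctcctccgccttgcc
SOX4: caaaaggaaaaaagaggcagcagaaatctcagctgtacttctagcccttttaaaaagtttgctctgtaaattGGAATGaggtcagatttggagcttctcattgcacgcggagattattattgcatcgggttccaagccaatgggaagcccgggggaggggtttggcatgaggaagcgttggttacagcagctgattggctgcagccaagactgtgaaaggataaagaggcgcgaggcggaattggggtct
DKK1: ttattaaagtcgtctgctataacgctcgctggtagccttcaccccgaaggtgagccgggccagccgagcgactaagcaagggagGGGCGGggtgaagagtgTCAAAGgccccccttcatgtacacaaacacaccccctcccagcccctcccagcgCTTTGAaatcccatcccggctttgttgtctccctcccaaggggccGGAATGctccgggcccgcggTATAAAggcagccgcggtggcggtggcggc
MARCKS: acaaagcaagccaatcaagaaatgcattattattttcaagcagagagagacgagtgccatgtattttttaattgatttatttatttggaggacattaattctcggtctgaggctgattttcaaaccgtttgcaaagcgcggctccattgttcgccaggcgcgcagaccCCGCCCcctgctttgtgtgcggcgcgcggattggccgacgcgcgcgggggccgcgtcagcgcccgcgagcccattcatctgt
S100A14: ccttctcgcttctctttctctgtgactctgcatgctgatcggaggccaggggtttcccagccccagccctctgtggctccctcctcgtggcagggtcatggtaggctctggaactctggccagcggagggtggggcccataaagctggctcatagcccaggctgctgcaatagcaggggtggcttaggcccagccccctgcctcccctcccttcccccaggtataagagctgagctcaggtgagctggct

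The motifs, searched on both strands and overlaps included, were TATAAA (the TATA box), GGAATG (a TEAD core), TGANTCA (an AP-1 site), CTTTGA (a TCF core), GGGCGG (an Sp/KLF site), CACGTG (an E-box) and the interferon-stimulated response element in its short form. The promoters of THBS1, SOX4 and DKK1 each hold GGAATG, at 46, 178 and 50 bases before the start. The printed promoters were picked by hand, so a motif they share does not stand for the called genes. DKK1 also holds a TCF core on each strand and a TATA box 30 bases before its start. No motif searched is in the ZBED2 or S100A14 window. The table held the promoters of 160 of the 201 genes called higher, 243 of the 354 called lower and 10912 of all 13598. GGAATG was in 13.8% of the higher set, 12.3% of the lower set and 9.52% of all. GGGCGG was in 66.9%, 71.2% and 64.9%, and CTTTGA in 8.12%, 8.23% and 7.79%. CACGTG was in 4.38% of the higher set, against 8.64% of the lower set and 8.63% of all. TATAAA was in 8.75%, 4.53% and 5.91% of these sets, TGANTCA in 3.75%, 2.88% and 4.11%, and the interferon element in 1.25%, 3.29% and 2.03%. A match describes the letters in the window and shows no binding, and these shares were not tested.

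Among the secreted and surface proteins, SEMA3A, a secreted axon guidance cue that signals through neuropilins and plexins, was high in SCP51. Its signals there were 225, 474 and 339 (replicates 1 to 3), against 41.6, 40.4 and 65.3 in SCP58. As in every called gene, the lines did not overlap. SCP51 replicate 1 was the lowest of its line, and the difference was 2.79 ± 0.28 (adjusted p = 0.00305) and 3.07 without that array. PCDH7, a protocadherin that joins neighbouring cells, had signals of 468, 686 and 675 in SCP51 and 99.9, 82.9 and 135 in SCP58. Its difference was 2.53 ± 0.27 (adjusted p = 0.00375; 2.71 without replicate 1). In the parent PCDH7 stood at 559, 310 and 482, at the level of SCP51 rather than SCP58. THBS1, the matrix glycoprotein thrombospondin 1, had signals of 1064, 1979 and 1544 in SCP51 and 479, 340 and 498 in SCP58. The difference came to 1.78 ± 0.25 (adjusted p = 0.00902; 2.01 without replicate 1), with the parent lowest at 289, 213 and 274. Of its 3 other probe sets, 2 shared the direction, and averaging all its probe sets put THBS1 at 1.30.

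NECTIN3, an immunoglobulin-like adhesion molecule, and LOXL2, a lysyl oxidase family enzyme that cross-links collagen, were higher in SCP51 as well. LOXL2 had signals of 216, 237 and 261 in SCP51 and 89.7, 62.8 and 78.1 in SCP58, with a difference of 1.64 ± 0.22 (adjusted p = 0.0085; 1.71 without replicate 1). Its 2 other probe sets shared the direction but differed far less, so that the mean over all its probe sets was 0.55. NECTIN3 had signals of 302, 592 and 576 in SCP51 and 185, 98.2 and 175 in SCP58, at 1.67 ± 0.36 (adjusted p = 0.0403; 1.99 without replicate 1). Its call was lost without SCP51 replicate 2 (0.128) or 3 (0.0792), parent replicate 1 (0.0598) or 3 (0.0801), or any SCP58 array (0.067, 0.145 and 0.0941).

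Ephrins, membrane-bound ligands of the Eph receptors, went both ways. EFNA5 had signals of 124, 164 and 155 in SCP51 and 61.7, 49.1 and 65.6 in SCP58, at 1.33 ± 0.19 (adjusted p = 0.00892; 1.45 without replicate 1). Of its 2 other probe sets, 1 shared the direction, and the mean over its probe sets was 0.82. EFNA4 ran the other way, at 45.5, 15.4 and 49.6 in SCP51 and 164, 137 and 123 in SCP58. Its difference was -2.10 ± 0.41 (adjusted p = 0.0319; -2.34 without replicate 1 and -1.37 with 32 added). Here SCP51 replicate 2 was the array apart, and the call was lost without parent replicate 1 (0.0542) or 3 (0.0632) or any SCP58 array (0.0844, 0.119 and 0.0851). Of all 33 measured axon guidance ligands and receptors, 2 were called higher, SEMA3A and EFNA5, and EFNA4 lower, which is 9.09% of the list against 4.08% of all genes. The median of the list was 0.00, against -0.11 for all genes. Without SCP51 replicate 1 there were 4 higher, with SEMA3C (1.68) and PLXNA1 (0.68) added, and 1 lower.

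Among the transcription factors and nuclear proteins, ZBED2, a BED-type zinc finger protein, differed most. Its signals were 366, 792 and 674 in SCP51, 17.6, 22.5 and 20.0 in SCP58 and 209, 166 and 200 in the parent. The 3 groups did not overlap, and SCP51 replicate 1 was again the lowest of its line. Because SCP58 lay under the array median, the size is uncertain: the difference was 4.86 ± 0.27 (adjusted p = 0.000245), 5.20 without replicate 1 and 3.56 with 32 added to every signal. ZBED2 was one of 4 genes higher in SCP51 than SCP58 that were called against the parent in both lines, at 1.61 ± 0.27 for SCP51 (adjusted p = 0.0178) and -3.26 ± 0.27 for SCP58 (adjusted p = 0.00322). SOX4, an HMG-box transcription factor active in progenitor cells, was bright in both lines, at 2930, 3396 and 3286 in SCP51 and 1308, 711 and 916 in SCP58. It differed by 1.75 ± 0.20 (adjusted p = 0.00434; 1.82 without replicate 1), and its 4 other probe sets shared the direction.

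HOXB8, a homeobox gene of the HOXB cluster, had signals of 533, 644 and 722 in SCP51, 316, 146 and 138 in SCP58 and 22.7, 33.0 and 29.1 in the parent. Both lines lay above the parent, and SCP51 above SCP58 by 1.76 ± 0.31 (adjusted p = 0.0215; 1.88 without replicate 1). The call between the lines was lost without SCP51 replicate 2 (0.0766) or SCP58 replicate 2 (0.0964) or 3 (0.076). HOXB6 had signals of 573, 347 and 460 against 260, 200 and 221, at 1.0 ± 0.22 (adjusted p = 0.0475), and its 1 other probe set went the other way, which put the mean at 0.43. HOXB4 had signals of 93.6, 85.8 and 87.9 against 67.9, 48.4 and 54.6, at 0.66 ± 0.14 (adjusted p = 0.04). HOXB6 was called in no fit with an array omitted other than SCP51 replicate 1 (adjusted p from 0.0505 to 0.172), and HOXB4 in none other than SCP58 replicate 1 (0.0513, without SCP51 replicate 1, to 0.144). Of 17 measured HOX genes, 3 were called higher and none lower (17.6% called, against 4.08% of all genes, or 1.48% higher), and 8 were above 0. Omitting SCP51 replicate 1 also gave 3 higher and none lower, HOXB4 not among them. Without SCP51 replicate 2 or SCP58 replicates 2 or 3, none of the 3 was called.

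In the group of vitamin D genes the ends of the pathway moved apart. CYP24A1, the mitochondrial enzyme that inactivates vitamin D and is itself a target of the vitamin D receptor, had signals of 280, 393 and 330 in SCP51 and 57.1, 29.2 and 49.8 in SCP58. That is a difference of 2.93 ± 0.28 (adjusted p = 0.00305; 3.05 without replicate 1). VDR, the receptor itself, went down: 155, 174 and 184 in SCP51 against 342, 421 and 367 in SCP58. The VDR difference was -1.14 ± 0.14 (adjusted p = 0.00688; -1.07 without replicate 1), shared in direction by its 3 other probe sets, but the mean over its probe sets was -0.56. The parent resembled SCP58 for both genes, with CYP24A1 at 37.6, 24.8 and 38.4 and VDR at 288, 362 and 295. No other gene among the 13 measured in this list was called with all arrays (15.4% called, against 4.08% of all genes), and CYP2R1, a vitamin D hydroxylase, was called lower without SCP51 replicate 1 (-0.90).

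**Figure D2:**
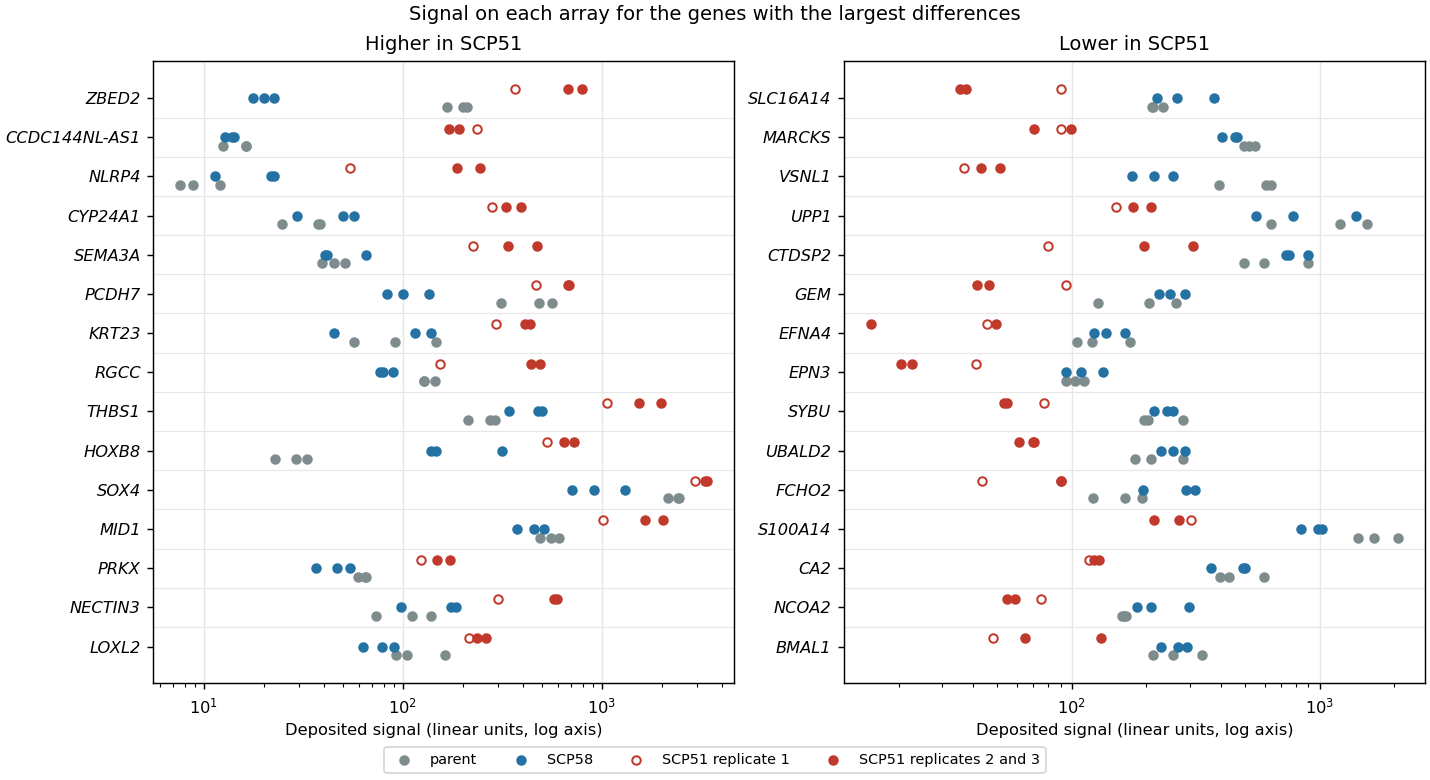
Signal on each of the 9 arrays, on a log axis, for the 15 called genes with the largest differences in each direction, with the open circle marking SCP51 replicate 1. The rule that chose these genes required that no SCP51 point overlap the SCP58 points of the same gene. The parent lies near SCP58 for CYP24A1, SEMA3A, MARCKS and CA2 and near SCP51 for PCDH7 and SOX4.

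Among genes of the cytoskeleton and membrane, MARCKS, an actin-binding substrate of protein kinase C at the plasma membrane, was lower in SCP51. Its signals were 90.5, 99.3 and 70.1, against 462, 405 and 454 in SCP58 and 495, 517 and 550 in the parent. The difference was -2.36 ± 0.15 (adjusted p = 0.000543; -2.40 without replicate 1), and all 4 other probe sets shared its direction, with -1.64 for the mean of probe sets. Of the 32 measured actin regulators and protein kinase C substrates it was the only gene called with all arrays (3.12%, against 4.08% of all genes), and the median of that list was -0.01. When SCP51 replicate 1 was omitted, the list had 2 called higher (ARHGAP29, 0.74, and CNN3, 0.38) and 2 lower (MARCKS and PRKCE, -0.55).

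A further 4 genes on the lower side were chosen by size and share no list. EPN3, an epsin of clathrin-coated pits, had signals of 40.9, 20.4 and 22.7 in SCP51 and 134, 94.6 and 109 in SCP58, at -2.06 ± 0.25 (adjusted p = 0.00676; -2.37 without replicate 1). SCP51 lay under the array median for EPN3, so the size is uncertain, and it was -1.27 with 32 added. FCHO2, which helps to start clathrin-coated pits, had signals of 43.4, 90.3 and 90.5 against 194, 290 and 315. It stood at -1.88 ± 0.32 (adjusted p = 0.0201; -1.53 without replicate 1), a call lost without SCP58 replicate 2 (0.0907) or 3 (0.076). SYBU, which links cargo to kinesin motors, had signals of 76.9, 54.9 and 53.4 against 214, 241 and 256, and differed by -1.96 ± 0.19 (adjusted p = 0.00305; -2.13 without replicate 1). UBALD2 had signals of 69.9, 61.2 and 70.4 against 285, 255 and 230, a difference of -1.93 ± 0.17 (adjusted p = 0.00305; -1.96 without replicate 1).

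Calcium-binding proteins and enzymes made up a further part of the lower side. VSNL1, a neuronal calcium sensor, had signals of 36.8, 42.9 and 51.4 in SCP51, 256, 175 and 215 in SCP58 and a mean of 546 ± 134 (SD, n = 3) in the parent. It stood at -2.30 ± 0.23 (adjusted p = 0.00305; -2.18 without replicate 1). S100A14, an EF-hand protein of epithelia, had the same order of groups, at 302, 215 and 270 in SCP51, 987, 1021 and 837 in SCP58 and 1434, 2075 and 1653 in the parent. Its difference was -1.86 ± 0.18 (adjusted p = 0.00305; -1.97 without replicate 1). With S100A2 at -1.32 ± 0.29 (adjusted p = 0.0422), 3 of 16 measured calcium sensors and S100 proteins were called lower and none higher (18.8%, against 2.6% lower over all genes), with a list median of -0.28 against -0.11. Without SCP51 replicate 1 there were 4 called lower, with S100A16 (-0.59) added, and the median was -0.19. S100A2 was called only while SCP51 replicate 2 and every parent and SCP58 array were present (adjusted p from 0.0628 to 0.153 with 1 of those 7 omitted).

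Of the enzymes and carriers, CA2, a carbonic anhydrase, had signals of 117, 129 and 123 in SCP51 and 502, 363 and 490 in SCP58. This gave -1.86 ± 0.19 (adjusted p = 0.00305; -1.82 without replicate 1). UPP1, uridine phosphorylase, which releases uracil from uridine, had signals of 151, 176 and 208 against 555, 1401 and 778. Its difference was -2.26 ± 0.40 (adjusted p = 0.0212; -2.14 without replicate 1), a call lost without SCP51 replicate 2 (0.0746) or SCP58 replicate 2 (0.0738) or 3 (0.0708). SLC16A14, a member of the monocarboxylate transporter family, stood at 90.4, 37.3 and 35.2 against 220, 266 and 374. In SCP51 its replicate 1 was the highest, and the difference of -2.51 ± 0.35 (adjusted p = 0.00891) became -2.95 without that array.

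Some of the largest differences rested on arrays that scattered. KRT23, an epithelial keratin, had signals of 294, 410 and 436 in SCP51 and 139, 44.8 and 115 in SCP58, at 2.07 ± 0.46 (adjusted p = 0.046; 2.24 without replicate 1). Omitting any array other than SCP51 replicate 1 ended its call (adjusted p from 0.0563 to 0.131). RGCC, a regulator of the cell cycle, had signals of 153, 438 and 486 against 89.1, 79.0 and 76.7, and its difference was 1.97 ± 0.38 (adjusted p = 0.0289) and 2.50 without replicate 1. The mean of its probe sets gave 1.08, with no call. Leaving out SCP51 replicate 2 or 3, parent replicate 1 or 3 or any SCP58 array ended the RGCC call (adjusted p from 0.0509 to 0.117). NLRP4, of the NOD-like receptor family, had signals of 54.0, 245 and 188 against 11.4, 21.6 and 22.5, at 2.94 ± 0.54 (adjusted p = 0.024; 3.60 without replicate 1). SCP58 and the parent lay under the array median for NLRP4, so it passed the filter through SCP51 alone, and its difference was 1.79 with 32 added. The NLRP4 call was lost without SCP51 replicate 2 or 3 or any SCP58 array (adjusted p from 0.0519 to 0.0833). CTDSP2, a phosphatase of the RNA polymerase tail, had signals of 80.3, 195 and 309 against 729, 753 and 894, and went from -2.22 ± 0.44 (adjusted p = 0.0333) to -1.69 without replicate 1. It was not called without SCP51 replicate 2, parent replicate 1 or 3 or any SCP58 array (adjusted p from 0.0542 to 0.119).

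The clock transcription factor BMAL1 had signals of 48.1, 64.5 and 131 in SCP51 and 229, 267 and 292 in SCP58. It differed by -1.82 ± 0.34 (adjusted p = 0.0256; -1.51 without replicate 1), and omitting SCP51 replicate 2, parent replicate 3 or any SCP58 array ended the call (adjusted p from 0.0572 to 0.104), as did the mean of its probe sets, -1.16. GEM, a small GTP-binding protein, had signals of 95.0, 41.5 and 46.3 against 225, 249 and 286. It stood at -2.15 ± 0.35 (adjusted p = 0.0158; -2.52 without replicate 1) and lost its call without SCP51 replicate 2 (0.0598) or SCP58 replicate 2 (0.0728) or 3 (0.0673). NCOA2, a coactivator of nuclear receptors, had signals of 74.9, 54.6 and 58.7 against 184, 208 and 296, at -1.85 ± 0.19 (adjusted p = 0.00305; -1.99 without replicate 1). The mean of its probe sets gave -1.07 (adjusted p = 0.0974). The antisense transcript CCDC144NL-AS1 had signals of 236, 171 and 192 in SCP51 against 12.7, 14.1 and 13.8 in SCP58, where it lay under the array median. The parent lay under it too, so the transcript passed the filter through SCP51 alone. Here SCP51 replicate 1 was the highest of its line, and the difference was 3.87 ± 0.17 (adjusted p = 6.78e-05), 3.74 without that array and 2.34 with 32 added.

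Of 893 symbols on the gene lists, 654 could be tested and 54 were called. Each list is set beside the share of all genes called, 4.08%, and the median of all genes, -0.11. Of all 13598 genes only 4755 lay above 0, and counts above or below 0 are to be read against that. No list was tested as a set. Integrin and matrix adhesion genes had 5 members called higher and none lower of 24, with a median of 0.28 (7 higher, none lower and a median of 0.24 without SCP51 replicate 1). COL6A3, a chain of collagen VI, was dim, at 52.2, 62.9 and 57.4 in SCP51 and 19.1, 17.3 and 20.0 in SCP58. Its difference was 1.61 ± 0.18 (adjusted p = 0.0041) and 0.81 with 32 added. SCP58 and the parent lay under the array median, so COL6A3 passed the filter through SCP51 alone. LAMA5, a laminin chain of the basement membrane, had signals of 669, 644 and 719 against 403, 289 and 318, at 1.02 ± 0.14 (adjusted p = 0.00891; 1.03 without replicate 1). COL6A1, another chain of collagen VI, stood at 0.86 ± 0.10 (adjusted p = 0.0052). Only 1 of its 3 other probe sets shared the direction, and the mean over all its probe sets, the chosen one included, was 0.14. The integrin subunit gene ITGB5 had a small difference of 0.44 ± 0.09 (adjusted p = 0.0404), not called without any array other than SCP51 replicate 1 or SCP58 replicate 3 (adjusted p from 0.0636 to 0.159). The list had 3 calls when SCP51 replicate 2 or 3, any 1 parent array or SCP58 replicate 2 was omitted.

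Of 23 epithelial junction genes, 20 lay below 0, 4 were called lower and none higher, and the median was -0.29 (5 lower and -0.24 without SCP51 replicate 1). After quantile normalization 6 of the 23 were above 0. CGN, the gene of cingulin at tight junctions, had even signals, 66.0, 66.9 and 66.4 in SCP51 against 109, 99.1 and 107 in SCP58. OCLN, the tight junction protein occludin, had signals of 460, 376 and 347 against 616, 791 and 806. The desmosomal cadherin DSC2 had signals of 198, 175 and 161 against 295, 386 and 444, and the splicing regulator ESRP1 530, 367 and 303 against 837, 811 and 1036. As in every called gene, the lines did not overlap in these 4. The differences were -0.66 ± 0.09, -0.90 ± 0.19, -1.06 ± 0.18 and -1.19 ± 0.21 (adjusted p = 0.00891, 0.04, 0.0205 and 0.0208). Without SCP51 replicate 2 or SCP58 replicate 2 or 3 the list had 1 call, CGN, and with only the 6 arrays compared it had none. With the mean of probe sets CGN, OCLN and DSC2 were not called. ESRP1 also lost its call without SCP58 replicate 1 (0.0508), and OCLN without SCP51 replicate 3 (0.0792) or parent replicate 1 (0.0567) or 3 (0.0792). In the list of mesenchymal markers and EMT regulators, 1 of 12 was called higher (LOXL2), 1 lower (TWIST1, at -0.71 ± 0.14, adjusted p = 0.035) and the median was 0.04 (2 higher and 1 lower without SCP51 replicate 1). TWIST1, a transcription factor of mesenchymal cells, was not called when SCP51 replicate 2, parent replicate 1 or 3 or any SCP58 array was omitted (adjusted p from 0.0509 to 0.11).

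Cadherins and protocadherins had 2 of 16 called higher, PCDH7 and FAT1, and 1 lower, DSC2, with a median of -0.07, and the counts were the same without SCP51 replicate 1. FAT1, a giant cadherin, was bright, at 3587, 4417 and 4151 in SCP51 and 2623, 2720 and 3147 in SCP58. The difference was small, 0.52 ± 0.10 (adjusted p = 0.0305; 0.60 without replicate 1), and its call ended on omitting SCP51 replicate 2 or 3, parent replicate 1 or 3 or SCP58 replicate 1 or 2 (adjusted p from 0.0587 to 0.125).

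Of 16 measured Wnt targets and feedback genes, 13 were above 0, 4 were called higher and none lower, and the median was 0.31 (6 higher and 0.43 without SCP51 replicate 1). DKK1, a secreted Wnt inhibitor that Wnt signalling itself induces, was the brightest of the 4, at 4617, 5363 and 5185 in SCP51 and 2198, 1993 and 1999 in SCP58. Its difference was 1.29 ± 0.11 (adjusted p = 0.00305; 1.36 without replicate 1), with the parent at 3004, 2256 and 2680. JAG1, a ligand of Notch receptors, had signals of 959, 1132 and 958 against 591, 376 and 534, at 1.04 ± 0.17 (adjusted p = 0.017), and was not called without SCP51 replicate 2 (0.0671) or SCP58 replicate 3 (0.0527). CD44, a hyaluronan receptor, stood at 0.55 ± 0.12 (adjusted p = 0.0459) and kept its call only when SCP51 replicate 1 was the array left out (adjusted p from 0.0542 to 0.142 otherwise). SOX4 completes the 4. Without SCP51 replicate 2 or SCP58 replicate 3 the list had 2 calls.

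TGF-beta and BMP targets and components had 3 of 26 called higher and 1 lower, with a median of -0.15 (6 higher and 2 lower without SCP51 replicate 1). TGFBR2, the type II TGF-beta receptor, had signals of 450, 576 and 517 in SCP51 and 274, 306 and 314 in SCP58, at 0.78 ± 0.14 (adjusted p = 0.0207). Its co-receptor TGFBR3 ran the other way, at -0.90 ± 0.20 (adjusted p = 0.0472). The feedback genes PMEPA1 and SMAD7, which damp TGF-beta signals, were dim and higher, at 0.83 ± 0.15 and 0.78 ± 0.16 (adjusted p = 0.0232 and 0.0351). SCP58 and the parent lay under the array median for both, so both passed the filter through SCP51 alone. None of the 4 was called without SCP51 replicate 2 or SCP58 replicates 2 or 3. Calls also ended without SCP51 replicate 3 (PMEPA1, 0.0507, and SMAD7, 0.0763), SCP58 replicate 1 (TGFBR2, 0.0561, TGFBR3, 0.0733, and SMAD7, 0.0836), parent replicate 1 (TGFBR3, 0.0617) and parent replicate 3 (TGFBR3, 0.0908, and SMAD7, 0.0679). The mean of probe sets put TGFBR2 at 0.46 and PMEPA1 at 0.52 and ended the calls of both and of TGFBR3. With 32 added SMAD7 stood at 0.43 and PMEPA1 at 0.51. YAP and TEAD targets had 1 call of 22, CRIM1 at 0.68, with a median of 0.22. That list had 4 called higher without SCP51 replicate 1 and 1 without parent replicate 2, and none when any other array was omitted.

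In the list of ERK feedback genes and EGFR ligands and receptors, 1 of 23 was called higher and 2 lower, with a median of -0.11 (3 higher and 2 lower without SCP51 replicate 1). DUSP6, a phosphatase that ERK signalling induces and that switches ERK off, had signals of 3891, 4129 and 3772 in SCP51 and 2169, 1577 and 2149 in SCP58. It differed by 1.01 ± 0.14 (adjusted p = 0.00891; 1.02 without replicate 1). ETV1, an ETS transcription factor, and ERBB3, a receptor of the EGFR family, were lower, at -1.17 ± 0.24 and -1.35 ± 0.28 (adjusted p = 0.037 and 0.0399). The mean of probe sets gave -0.54 for ETV1, with no call, and -0.77 for ERBB3. ETV1 was not called when SCP51 replicate 2 or any parent or SCP58 array was omitted (adjusted p from 0.0596 to 0.11), and ERBB3 was called only when SCP51 replicate 1 was the array left out (0.0547 to 0.12 otherwise).

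Of 22 interferon response genes, 19 lay below 0, and the median was -0.26. IFIT2 and IFIT1, which interferon induces, were called lower, and ZBED2, a member of the same list, higher. IFIT1 had signals of 78.4, 59.6 and 68.5 in SCP51, 118, 122 and 111 in SCP58 and 65.3, 73.5 and 78.5 in the parent, so that SCP58 was the group apart. Its difference was -0.78 ± 0.13 (adjusted p = 0.0183), lost without SCP51 replicate 2 (0.0595) or SCP58 replicate 2 (0.0833) or 3 (0.0554). IFIT2 was dim, at 15.4, 11.8 and 13.8 against 49.4, 54.1 and 48.6, with a difference of -1.90 ± 0.29 (adjusted p = 0.0129) and of -0.86 with 32 added. SCP51 and the parent lay under the array median, so IFIT2 passed the filter through SCP58 alone. It was not called without SCP58 replicate 2 (0.0693) or 3 (0.0541). With no filter on low signal the adjusted p of IFIT2 was 0.517, and there a probe set that fails the filter could represent the gene.

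Among 17 chemokines, interleukins and their receptors, 1 was called higher and 1 lower, with a median of -0.08 (2 each way without SCP51 replicate 1). LIF, a cytokine of the interleukin 6 family, had signals of 877, 949 and 943 in SCP51 and 686, 426 and 517 in SCP58, at 0.79 ± 0.18 (adjusted p = 0.0492). IL6R, the interleukin 6 receptor, had signals of 64.0, 68.1 and 65.7 against 94.4, 106 and 109, at -0.64 ± 0.11 (adjusted p = 0.0212). LIF kept its call only when SCP51 replicate 1 or SCP58 replicate 1 was the array omitted (0.0661 to 0.159 otherwise), and IL6R lost its call without SCP51 replicate 2 or SCP58 replicate 2 or 3 (0.0669, 0.0964 and 0.0773).

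Of 45 oxidative phosphorylation subunits, the proteins of the mitochondrial respiratory chain, 41 lay below 0, 4 were called lower and none higher, and the median was -0.35. Without SCP51 replicate 1 there were 6 called lower and the median was -0.16, without SCP51 replicate 3 there were 13, and without SCP51 replicate 2 or SCP58 replicate 2 or 3 there were 2. CYC1, cytochrome c1 of complex III, had signals of 1485, 1382 and 1473 in SCP51 and 2428, 2149 and 2382 in SCP58. Its difference was -0.68 ± 0.08 (adjusted p = 0.0052; -0.70 without replicate 1). UQCRB, a further subunit of complex III, had signals of 1664, 1892 and 2090 against 3297, 3095 and 3100, at -0.76 ± 0.10 (adjusted p = 0.00755; -0.67 without replicate 1). CYC1, UQCRB and COX6C, a subunit of complex IV at -0.58 ± 0.09 (adjusted p = 0.0156), lie on chromosome 8. There 74 of 473 measured genes were called lower (15.6%, against 2.6% of all genes) and 8 higher (1.69%, against 1.48%). Most of these lower calls came after MRPL15 in chromosome order, and the higher calls before it. CA2, SYBU, GEM, NCOA2 and ESRP1, called lower, and LOXL2, called higher, lie on chromosome 8 too. COX6C lost its call without SCP51 replicate 2 (0.0578) or SCP58 replicate 2 (0.0755) or 3 (0.0593). NDUFA9, of complex I, lies on chromosome 12 and stood at -0.54 ± 0.12 (adjusted p = 0.0435), a call that ended when SCP51 replicate 2 or any parent or SCP58 array was omitted (adjusted p from 0.0636 to 0.138).

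Several groups held few or no calls. Of 32 cytosolic ribosomal proteins, none was called and all lay below 0, with a median of -0.20, or -0.05 and 3 called lower without SCP51 replicate 1. With quantile normalization 3 of the 32 were above 0 and 2 were called lower. RPS16 was the brightest, at 8902, 9268 and 9529 in SCP51 and 9252, 9610 and 9173 in SCP58, where the lines overlapped. Mitotic genes had no call of 37 (2 lower without replicate 1) and DNA replication genes 1 lower of 38. Of 25 proteases of the matrix and their inhibitors, none was called with all arrays, and without SCP51 replicate 1 there were 2 higher and 1 lower. TIMP1, an inhibitor of matrix metalloproteinases, had overlapping signals of 2243, 1940 and 2520 in SCP51 and 2052, 2170 and 2044 in SCP58. Of 20 genes tied to colorectal cancer metastasis in the literature, 3 were called higher and none lower. They were TGFBR2, CD44 and L1CAM, a neural adhesion molecule at 0.70 ± 0.13 (adjusted p = 0.0281) whose 1 other probe set went the other way, and none of the 3 was called without SCP51 replicate 2 or SCP58 replicate 2 or 3. Omitting SCP51 replicate 3 (0.0611), parent replicate 1 (0.0541) or parent replicate 3 (0.0604) also ended the L1CAM call. With the mean of probe sets the list had none called higher and 1 lower, and TGFBR2, CD44 and L1CAM stood at 0.46, 0.40 and 0.25.

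With all arrays, each remaining list had at most 1 call in a direction. Without SCP51 replicate 1 there were 2 higher among hypoxia and glycolysis genes, 2 higher and 1 lower among stress genes, 2 each way among solute carriers, 2 lower among intestinal differentiation genes and 1 each way among colon stem cell markers. Of 33 hypoxia and glycolysis genes, 24 were above 0 and 1 was called higher, the glucose transporter SLC2A1, at 0.55 ± 0.10 (adjusted p = 0.0232). Its 1 other probe set went the other way, the mean of both gave -0.23, and its call ended without SCP51 replicate 2, parent replicate 3 or SCP58 replicate 2 or 3 (adjusted p from 0.0524 to 0.0954). Single genes were called higher among 20 cholesterol synthesis genes (TM7SF2, 1.17), 17 stress genes (DNAJA1, 0.54), 10 colon stem cell markers (CD44) and 12 antisense and long noncoding RNAs (CCDC144NL-AS1). Single genes were called lower among 15 intestinal differentiation genes (CA2), 16 class I antigen presentation genes (TAP2, -0.89) and 38 DNA replication genes (CDC45), and 25 solute carriers had 1 call each way. None of 9 cancer-testis antigen genes was called. Among them MAGEA6 showed SCP51 replicate 1 apart, with signals of 741, 2522 and 2422 in SCP51 and 2311, 2419 and 2264 in SCP58.

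**Figure D3:**
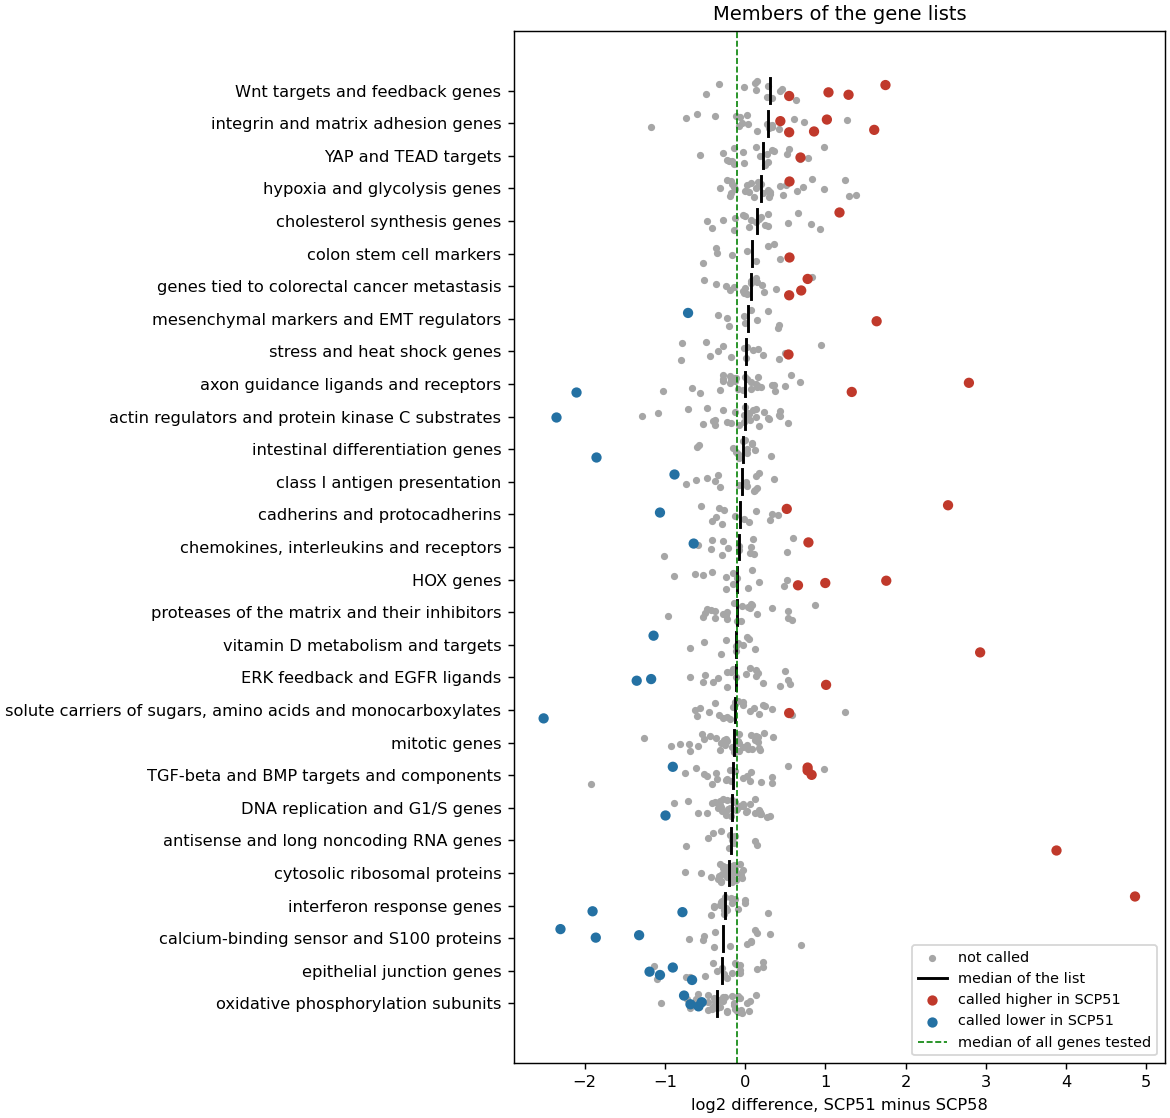
Log2 differences between SCP51 and SCP58 (x axis) of the measured members of 29 gene lists, with a black bar at the median of each list and a dashed line at the median of all genes, -0.11. Wnt targets have the highest median, 0.31, and oxidative phosphorylation subunits the lowest, -0.35.

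For most called genes the parent mean lay nearer SCP58 than SCP51. These positions share arrays with the comparison of the lines and are a description. Of the 201 genes called higher in SCP51, the parent mean was nearer SCP58 in 154 (76.6%), and of the 354 called lower in 285 (80.5%). Over all genes tested the share was 65.1%. For genes called without SCP51 replicate 1 it was 77.2% of the higher and 79.8% of the lower, with no share over all genes taken for that fit. Against the parent, 94 of the 201 higher genes were called for SCP51 alone, 3 for SCP58 alone, 4 for both and 100 for neither. Of the 354 lower genes, 143 were called for SCP51 alone, 1 for SCP58 alone and 210 for neither. All genes gave 402 calls (2.96%) between SCP51 and the parent and 19 (0.14%) between SCP58 and the parent.

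**Figure D4:**
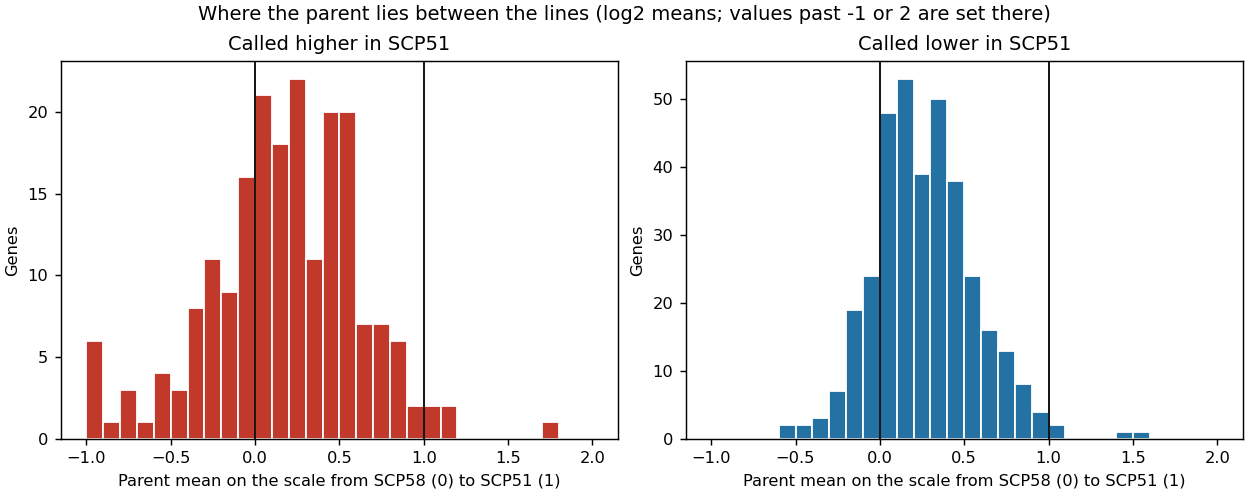
Histograms of the position of the parent mean (log2) for the called genes, on a scale on which SCP58 is 0 and SCP51 is 1, with the number of genes on the y axis. The parent lies nearer SCP58 than SCP51 for 154 of the 201 higher and 285 of the 354 lower genes, and 62 and 57 of them lie below 0, beyond SCP58.

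The other probe sets of the called genes mostly went the same way. Of 339 called genes with more than the probe set chosen, 259 had every other probe set in the direction of the chosen one. The mean of probe sets ended the calls of 18 of the 65 genes examined one by one and turned that of SLC2A1. In all, 535 of 633 other probe sets did so (84.5%), against 64.5% for genes not called. The median of the other probe sets was 0.49 in the direction of the call, against 0.84 for the chosen ones. Calls were fewer among dim genes, at 1.79% of the 3400 dimmest genes and 4.56% to 5.27% in brighter groups of like size.

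A run of neighbouring genes on the X chromosome was higher in SCP51, a pattern looked at after the values were seen and given as a description. The first 46 measured genes in chromosome order, from PLCXD1 to AP1S2, held 16 genes called higher and none lower, a share of 34.8%. Of the 46, 40 lay above 0, and the median was 0.51. The remaining 373 genes of X had 2 called higher and 7 lower, with a median of -0.11. The 30 genes of the run that were not called had a median of 0.24, with 24 above 0. Among all 12664 windows of 40 measured neighbours on the same chromosome, 17 held 10 or more higher calls. All 17 lay on X, and the highest number elsewhere was 5. The windows slide gene by gene and overlap, so the 17 all cover this run. Its ends were set at genes called higher, so its share of calls is partly fixed by how it was cut.

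The genes of this run have unrelated roles. ZBED1, a BED-type zinc finger protein like ZBED2, had signals of 180, 168 and 178 in SCP51 and 71.3, 73.6 and 75.6 in SCP58, at 1.25 ± 0.09 (adjusted p = 0.00162). PUDP, a phosphatase of modified nucleotides, had signals of 793, 793 and 819 against 393, 413 and 394, at 1.0 ± 0.10 (adjusted p = 0.00305). The parent resembled SCP58, at 97.6, 93.4 and 86.0 for ZBED1 and 358, 377 and 377 for PUDP. TRAPPC2, a subunit of a vesicle tethering complex, had signals of 457, 563 and 515 against 223, 182 and 197, at 1.35 ± 0.14 (adjusted p = 0.00305). AKAP17A, which binds protein kinase A in nuclear speckles, had signals of 651, 672 and 652 against 316, 308 and 300, at 1.1 ± 0.11 (adjusted p = 0.00305). In these 4 genes SCP51 replicate 1 lay with the other arrays of its line.

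The called genes of the run also include TMSB4X, the actin-binding peptide thymosin beta 4, at 3448, 4136 and 4537 against 2424, 2382 and 2080 (0.81 ± 0.11, adjusted p = 0.0085). HCCS, which attaches haem to cytochrome c, had signals of 1456, 1578 and 1605 against 848, 1000 and 854 (0.78 ± 0.11, adjusted p = 0.00891). The largest differences of the run were those of MID1 and PRKX. MID1, a ubiquitin ligase bound to microtubules, had signals of 1013, 2024 and 1644 against 458, 376 and 510, at 1.75 ± 0.25 (adjusted p = 0.00892; 2.04 without replicate 1). PRKX, a kinase of the cAMP-dependent family, had signals of 124, 172 and 148 against 54.4, 36.5 and 46.4, at 1.70 ± 0.17 (adjusted p = 0.00305; 1.82 without replicate 1). In PIR and MSL3, which were not called with all arrays, SCP51 replicate 1 lay apart: PIR had signals of 200, 758 and 774 in SCP51, and MSL3 had 65.6, 356 and 364.

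Without SCP51 replicate 1 the run held 18 higher calls and none lower, with a median of 0.61. The count was 17 after quantile normalization and 10 at its lowest with an array left out, without SCP58 replicate 3, and none of its genes was called lower under any alternative. With only the 6 arrays compared it was 8. Set against the parent, the 46 genes had a median of 0.45 in SCP51 with 13 called higher, and of -0.04 in SCP58 with none called. These comparisons share the SCP51 and SCP58 arrays with the comparison of the lines.

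**Figure D5:**
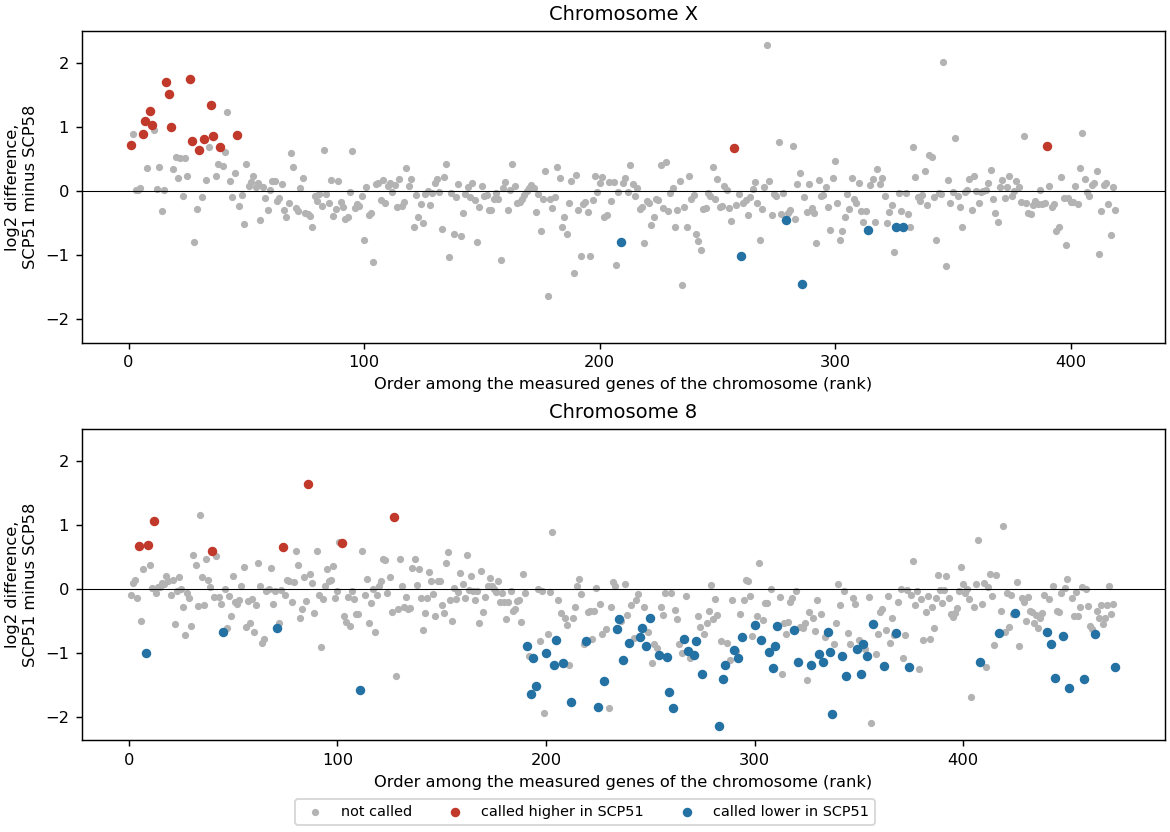
Log2 difference between SCP51 and SCP58 (y axis) against the rank of each measured gene along chromosomes X and 8 (x axis). Called genes higher in SCP51 gather among the first 46 genes of X, and those lower in SCP51 gather on chromosome 8, which holds 74 of them.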

How the data were processed

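Total RNA of 9 cultures was reverse transcribed from oligo(dT), copied into biotinylated cRNA and hybridised to Affymetrix arrays, per the labels' protocols. For each of 54675 probe sets the authors deposited a linear intensity. GCOS 1.4 is named in the submitters' processing notes. Its scaling target and summary of probes were not given in the sources used here. Precision depends on how many arrays there are, 3 to a group.

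From these intensities, 514 values below 1 were set to 1 and log2 was taken. The 62 control probe sets were left out, and a probe set was kept if at least 3 of its 9 values exceeded the median of the array. Of all probe sets, 41091 carried 1 symbol, 1801 several and 11721 none, and 99.87% of the first matched RefSeq (GRCh38.p14) by Entrez identifier, which served for names, order and promoters. Each gene was represented by its brightest probe set (mean log2 over all arrays), kept the same when an array was left out.

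limma 3.58.1 in R 4.3.3 fitted 1 mean per group to all 9 arrays, with variances that follow an intensity trend. Two-sided p-values received a Benjamini-Hochberg adjustment across the 13598 genes. The code was tested on simulated data. Replicate numbers did not pair the arrays (same-number correlations of deviations from -0.22 to 0.13, 1 of 9 above 0.1).

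Named genes were the 15 with the largest called difference in each direction, among genes called with and without SCP51 replicate 1, without overlap and with a mean signal of at least 100 in the brighter line. Added were up to 4 called members of each list with at least 2 called, and up to 2 bright members of a list with none. The 34 lists cover adhesion, invasion, signalling, immune, identity, metabolic and growth genes and cell type markers. Any other gene was picked with its values in view, and some uncalled genes under the rule go undescribed. The members and lists were chosen with earlier results of these data known. Alternatives were the filter, the scaling, 32 added before log2, no trend, array weights, the mean of probe sets, only the 6 arrays, the replicate number as a block and each array left out. Figures were drawn with matplotlib 3.10.9.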

Additional observations from a re-analysis of the deposited data

How the results depend on the processing

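Of 1229 values of the 65 called genes named in the text under the alternatives, 1228 kept their direction, 931 of them with the call and 297 without it. The exception was SLC2A1, at 0.55 for the chosen probe set and -0.23 for the mean over both. The lines did not overlap for any called gene, so only a change of probe set or scaling could turn a direction. Uncalled genes also changed sign with an array left out: the blood cell markers CD3E (range -0.05 to 0.08, below 0 at -0.03, -0.01 and -0.05 without SCP51 replicate 1, SCP51 replicate 3 and SCP58 replicate 3) and ITGAM (-0.39 to 0.04), SPINT2 (-0.03 to 0.10), TIMP1 (-0.00 to 0.19), MAGEA6 (-0.80 to 0.08) and RPS16 (-0.04 to 0.01, and 0.00 without SCP58 replicate 2). RPS16 also stood at 0.00 after quantile normalization and 0.05 after centring.

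The genes called between SCP51 and SCP58, 555 with 201 higher and 354 lower, numbered 1527 with array weights (654 and 873), 134 with only the 6 arrays compared (56 and 78) and 210 in a fit with a replicate block (73 and 137), although the numbers did not pair the arrays. Lower calls numbered 234 with no filter. Higher calls numbered 319 after quantile normalization and 309 after centring on the 75th percentile. With each array left out in turn, the calls ranged from 141 to 1197, the higher from 54 to 557 and the lower from 87 to 640. These fits hold fewer arrays. Of the 65 named calls, 1 was lost without SCP51 replicate 1, where the genes chosen by size could not lose theirs. The losses were 33 without SCP51 replicate 2, 35 without SCP58 replicate 2 and 34 without SCP58 replicate 3. They were 38 with only the 6 arrays, 28 with the block, 18 with the mean of probe sets (besides SLC2A1) and 14 with no filter. Otherwise the causes were not tested. With 32 added the differences of dim called genes were smaller. Their direction could not change, since adding 32 keeps the order of the arrays.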
